A study of Schizosaccharomyces pombe with 12 samples.

Results

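RNA levels of fission yeast (Schizosaccharomyces pombe) cells with the thermosensitive allele mis4-367 were set against those of mis4+ cells after 2 h at 37 °C. The comparison rests on 6 of the 12 arrays of the series, 3 from independent cultures of each strain, chosen by the strain and temperature in their titles. Both strains were h- cells (the mating type called M) of genotype h- ura4+-pREP2-res1 with either mis4 allele. All 4 groups, the controls included, carried the plasmid that makes a C-terminal fragment of Res1 when thiamine is absent, and all were arrested in G1 by that fragment, which ties up the transcription factor Cdc10. Growth ceased 7 doublings after thiamine was withdrawn, and the other 6 arrays hold both strains in that arrest at 25 °C, before the shift. The differences describe arrested cells, and the heat and the arrest were common to both strains. Each strain is represented by a single genotype, and no rescue of mis4-367 or second allele was measured.

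Mis4 and its partner Ssl3 load cohesin onto chromosomes. Cohesin is a ring of the proteins Psm1, Psm3, Rad21 and Psc3 that holds sister chromatids together and folds chromosomes, and in many organisms its loss changes transcription apart from its role in division. The study asked which genes depend on cohesin for their level when cells do not divide. In fission yeast, genes of mating and meiosis are normally low during growth and are switched on by the transcription factor Ste11 when nutrients run out.

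Levels are log2 of the deposited intensity of 1 probe set per gene, so that 1 unit is a doubling and differences are mis4-367 minus mis4+. A total of 2896 genes were measured, and the median of all of them differed by -0.05 between the strains at 37 °C, or -0.01 without replicate 3 of mis4+. A gene is said to be lower or higher where its adjusted p was under 0.05 in a limma fit of all 12 arrays. The median level of the S. pombe genes on an array was 394 to 433 intensity units, and the number of arrays limits the precision, with a median standard error (SE) of 0.065 for a difference. Replicate 3 of mis4+ at 37 °C stood apart: its values deviated from the other arrays of its group with a standard deviation over genes of 0.202, where the remaining 5 arrays at 37 °C had 0.091 to 0.134 and those at 25 °C 0.065 to 0.103. For lists and named genes, values without that array are given where a call was lost or a median moved by over 1.5 times.

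At 37 °C 158 genes were lower in mis4-367, which is 5.46% of those tested, and 50 were higher, which is 1.73% (together 7.18%). Most differences were small: the median of the lower genes was -0.29 and that of the higher genes 0.27, and 7 genes reached 1.5-fold, all of them lower. The lower genes included mfm1 and mfm3 of the mating pheromone M-factor, the septin gene spn6, and regulators of mating, meiosis and mitosis. The higher genes included all 4 measured small Tim chaperones of mitochondrial import, a group formed after its values were seen. They also included 4 of 49 factors of ribosome biogenesis (8.16%, against 1.73% of all genes). In extracts of whole cultures, fewer cells that express a gene and less of its RNA per cell cannot be told apart. Leaving out replicate 3 of mis4+ gave 73 lower (2.52%) and 30 higher genes (1.04%), and all 208 genes kept their direction, with 67 of the 158 and 25 of the 50 still called. Quantile normalization over the S. pombe genes, which gives every array the same distribution, left 88 lower and 88 higher (3.04% each), of which 77 and 48 were among the 158 and the 50. The call held with each of the 12 arrays left out in turn for 21 genes, namely mfm1, spn6, mfm3, but1, mel1, rec10, slp1, byr2, git3, tti1, mug124, pof5, mug62, apc2, lsc1, oxr1, pof14 and cdc1, which were lower, and aes1, uba2 and mug184, which were higher. Every other call was lost without at least 1 array, most often without replicate 2 of mis4-367 at 37 °C, where 186 of the 208 were lost, against 116 and 129 without its replicates 1 and 3 and 73, 7 and 116 without replicates 1, 2 and 3 of mis4+ at 37 °C. The levels of mug62 at 37 °C, 2.81 to 3.38, lay below the background of 3.42 on all 6 arrays, so its difference is no measure of its RNA, and it did not pass after quantile normalization (adjusted p = 0.212). With that normalization rec10 (adjusted p = 0.118), apc2 (0.0694) and tti1 (0.0673) did not pass either. Without 1 of the arrays at 25 °C, which share the estimate of the spread, 80 to 155 of the 208 calls were lost.

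**Figure D1:**
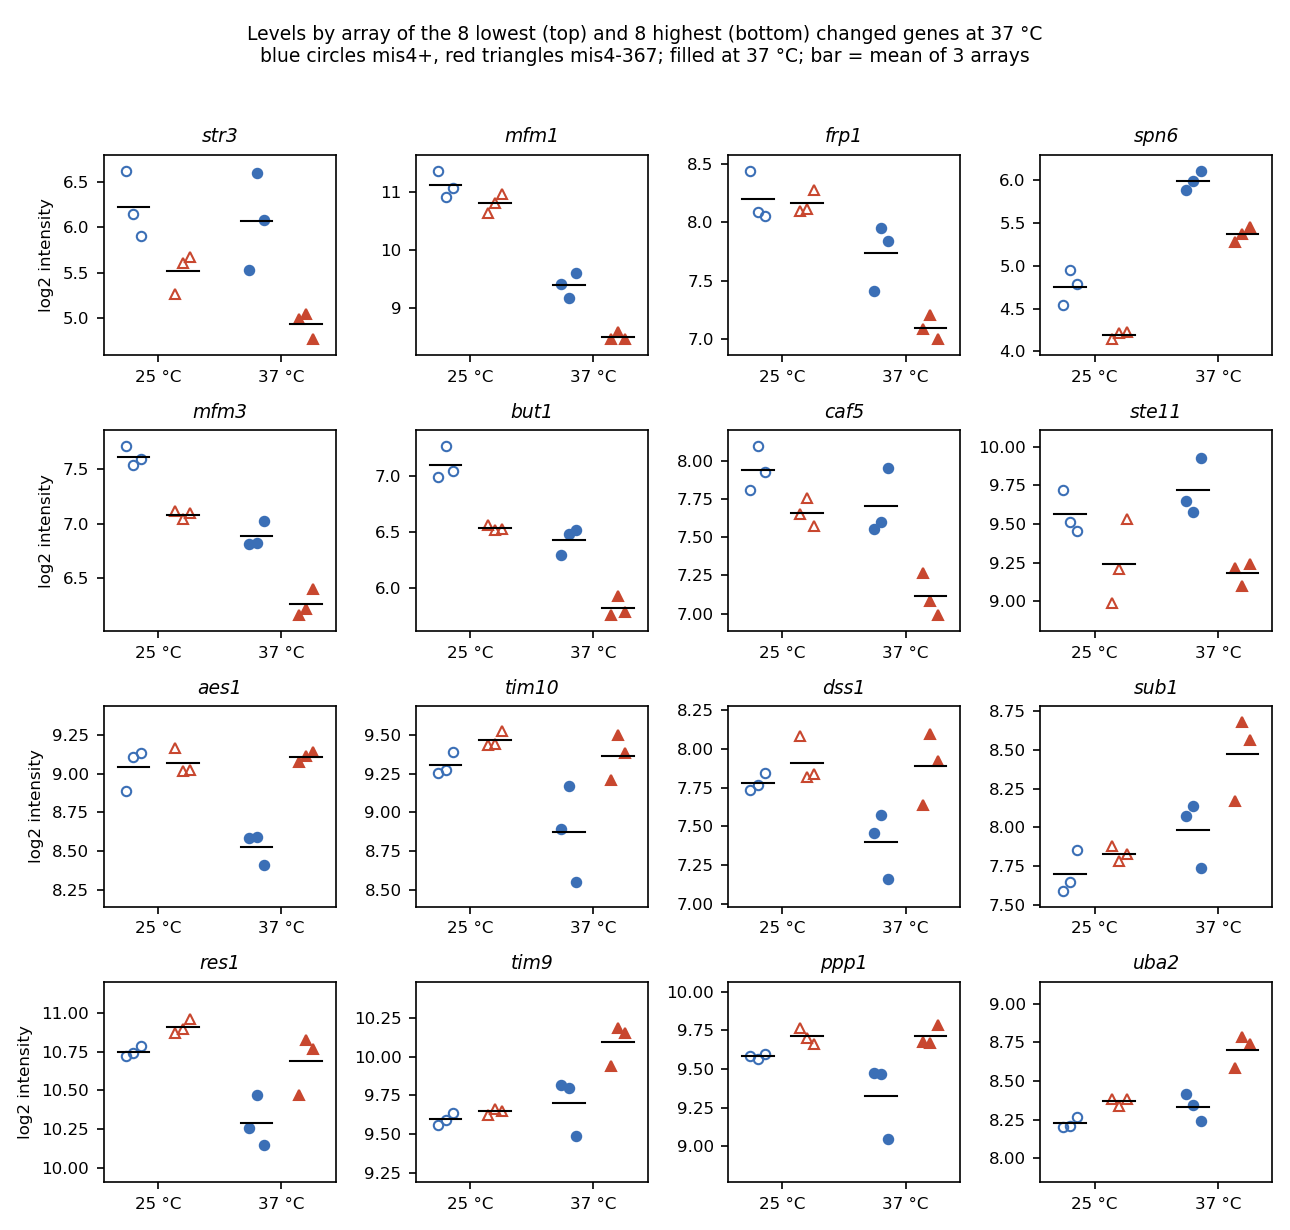
Log2 intensity of the 8 genes with the lowest and the 8 with the highest difference among those that passed at 37 °C, on every array of the 4 groups. Open symbols are 25 °C and filled symbols 37 °C, circles mis4+ and triangles mis4-367, bars are means of 3 arrays, each panel has its own level but spans at least 1.2 units. For mfm1 the 3 arrays of mis4-367 at 37 °C lie between 8.46 and 8.58 and those of mis4+ between 9.16 and 9.60, while the arrays at 25 °C overlap.

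Of the mating genes that passed, mfm1 and mfm3 of the M-factor had the largest differences. The gene mfm1, which encodes a precursor of the pheromone secreted by M cells, had levels of 9.41, 9.16 and 9.60 in mis4+ and 8.46, 8.58 and 8.46 in mis4-367 at 37 °C. All 3 mis4-367 arrays lay below all 3 mis4+ arrays, a difference of -0.89 ± 0.13 (SE, 1.86-fold, adjusted p = 0.00513). For mfm3, a second precursor gene, mis4+ had 6.81, 6.82 and 7.03 and mis4-367 had 6.16, 6.22 and 6.40, which again left a gap between the strains (-0.62 ± 0.07, adjusted p = 0.00288). Its probe set is marked as shared between sequences, so part of its signal may come from another M-factor gene. The remaining M-factor gene, mfm2, did not pass: its levels were 11.75, 11.74 and 11.46 in mis4+ and 11.73, 11.82 and 11.81 in mis4-367, and the groups overlapped (0.14, adjusted p = 0.229). mfm3 also differed at 25 °C (-0.53, adjusted p = 0.00961), whereas mfm1 did not pass there (-0.31, adjusted p = 0.357), and the difference between the temperatures did not pass for either gene (adjusted p = 0.824 for mfm1 and 0.871 for mfm3).

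In the list of M-factor and pheromone exchange genes 3 of 17 measured members were lower (17.65%, against 5.46% of all genes) and none higher. The median was -0.17, and -0.08 without replicate 3 of mis4+, where the same 3 members still passed. Besides mfm1 and mfm3 it was mam4, which encodes the methyltransferase that caps the M-factor (-0.33 ± 0.07, adjusted p = 0.0232). The receptor gene mam2 of M cells stood at 8.51, 8.62 and 8.63 in mis4+ and 8.24, 8.40 and 8.28 in mis4-367, apart but not passing (-0.29, adjusted p = 0.0718). The calls of mfm1 and mfm3 held with each of the 6 arrays at 37 °C left out, and that of mam4 did not hold without replicate 2 of mis4-367, where its adjusted p was 0.0679. Of 6 markers of M cells 2 were lower, and their summed intensity spanned 4916 to 5237 in mis4+ and 4688 to 5065 in mis4-367. The sum adds linear intensities, so its largest part was mfm2 (log2 11.46 to 11.82), the only one of the 6 with a difference above 0. Of the 4 markers of P cells, the opposite mating type, none passed, and their summed intensity, most of it sxa1, was 2286 to 2547 and 2392 to 2587. These P markers were not near background (log2 3.42): map2, the P-factor gene, was 5.80 to 6.03 in mis4+, and sxa1 10.90 to 11.10. What gives signal at these probe sets was not tested.

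In the list of the pheromone pathway and Ste11 6 of 32 measured members were lower (18.75%, against 5.46% of all genes) and none higher. The median was -0.13, and -0.07 without replicate 3 of mis4+. It contains byr2, the kinase at the top of the pheromone MAP kinase cascade, with levels of 6.95 to 7.09 in mis4+ and 6.58, 6.60 and 6.48 in mis4-367. The strains were apart by -0.46 ± 0.05 (adjusted p = 0.00288), and the call held with each of the 6 arrays left out. ste11, the switch of sexual differentiation, stood at 9.65, 9.58 and 9.92 against 9.22, 9.10 and 9.24, again without overlap (-0.53 ± 0.13, adjusted p = 0.0342). Also lower were spk1, the MAP kinase of this cascade (-0.42, adjusted p = 0.042), rgs1, a regulator of its G protein (-0.39, adjusted p = 0.0365), ste6, an activator of Ras1 (-0.30, adjusted p = 0.0376), and rep1, an activator of MBF in meiosis (-0.39, adjusted p = 0.0409). The mean of rep1 in mis4-367, 3.40, was not above the background of 3.42, so the size of its difference is not measured, and it was -0.18 after quantile normalization (adjusted p = 0.198). Without replicate 3 of mis4+ only byr2 of the 32 still passed, in a fit where 2.52% of all genes were lower, and the adjusted p of ste11 was 0.0875. The calls of ste11, spk1 and ste6 were also lost without replicate 1, 2 or 3 of mis4-367, and those of rgs1 and rep1 without any of these or replicate 1 of mis4+, with adjusted p between 0.0543 and 0.133 over all those settings.

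Lists of meiotic genes were taken next. The linear elements are the protein axes on which fission yeast recombines its chromosomes. The list of linear elements and recombination had 4 of 31 measured members lower (12.9%, against 5.46% of all genes) and none higher. Its median was -0.15, or -0.09 without replicate 3 of mis4+. The linear element gene rec10 had 5.08, 5.34 and 5.36 in mis4+ and 4.62, 4.86 and 4.75 in mis4-367, a gap between the groups (-0.52 ± 0.09, adjusted p = 0.0125), and the call held with each of the 6 arrays left out. rec10 was lower at 25 °C too (-0.53, adjusted p = 0.0237). meu13, which promotes homologous pairing (levels of 5.15, 4.70 and 4.84 against 4.22, 4.53 and 4.37), differed by -0.52 ± 0.12 (adjusted p = 0.0337). At 25 °C its difference was -0.01, but its means there, 3.35 in mis4+ and 3.34 in mis4-367, lay below the background of 3.42. The -0.01 is thus no measure of its RNA, and the difference of meu13 between temperatures did not pass (adjusted p = 0.824). mcp7, the partner of meu13 in pairing, had the lowest difference among members that did not pass (-0.87, adjusted p = 0.0693), with wide levels of 6.75, 5.79 and 6.56 against 5.13, 5.36 and 5.99. The recombinase gene dmc1 (-0.43, adjusted p = 0.039) and the crossover nuclease gene eme1 (-0.36, adjusted p = 0.0464) were lower as well. Of the 31 members 90.3% lay among the dimmest 25.0% of all genes, where 9.81% of genes were lower and the median was -0.12. Under quantile normalization the list kept no call, with a median of -0.04. Only rec10 of the 4 still passed without replicate 3 of mis4+.

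Among sporulation and forespore membrane genes 3 of 36 measured members were lower (8.33%, against 5.46% of all genes). Of the 36 members 61.1% lay among the dimmest 25.0% of all genes, where 9.81% of genes were lower. The septin gene spn6, of the ring of septins that guides the membrane around each spore, had 5.89, 5.99 and 6.11 in mis4+ and 5.28, 5.37 and 5.45 in mis4-367, well apart (-0.63 ± 0.09, adjusted p = 0.00517). It was also lower at 25 °C (-0.56, adjusted p = 0.0198). meu14, of the forespore membrane's leading edge (-0.41, adjusted p = 0.029), and the alpha-glucan synthase gene mok12 (-0.31, adjusted p = 0.017) were the others. meu14 did not pass without replicate 3 of mis4+ (adjusted p = 0.0609), without replicate 1, 2 or 3 of mis4-367 (at most 0.104), or after quantile normalization (-0.22, adjusted p = 0.249), and mok12 did not pass without replicate 2 of mis4-367 (0.0666). The remaining 33 did not pass, and the list median was -0.12, or -0.02 after quantile normalization. Of the 10 septin genes measured spn6 was the one that passed, with a list median of -0.06. Among 6 sporulation markers 1 (meu14) was lower, with summed intensities of 635 to 658 in mis4+ and 625 to 637 in mis4-367. The largest part of these linear sums was mde10, which did not pass (-0.01).

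**Figure D2:**
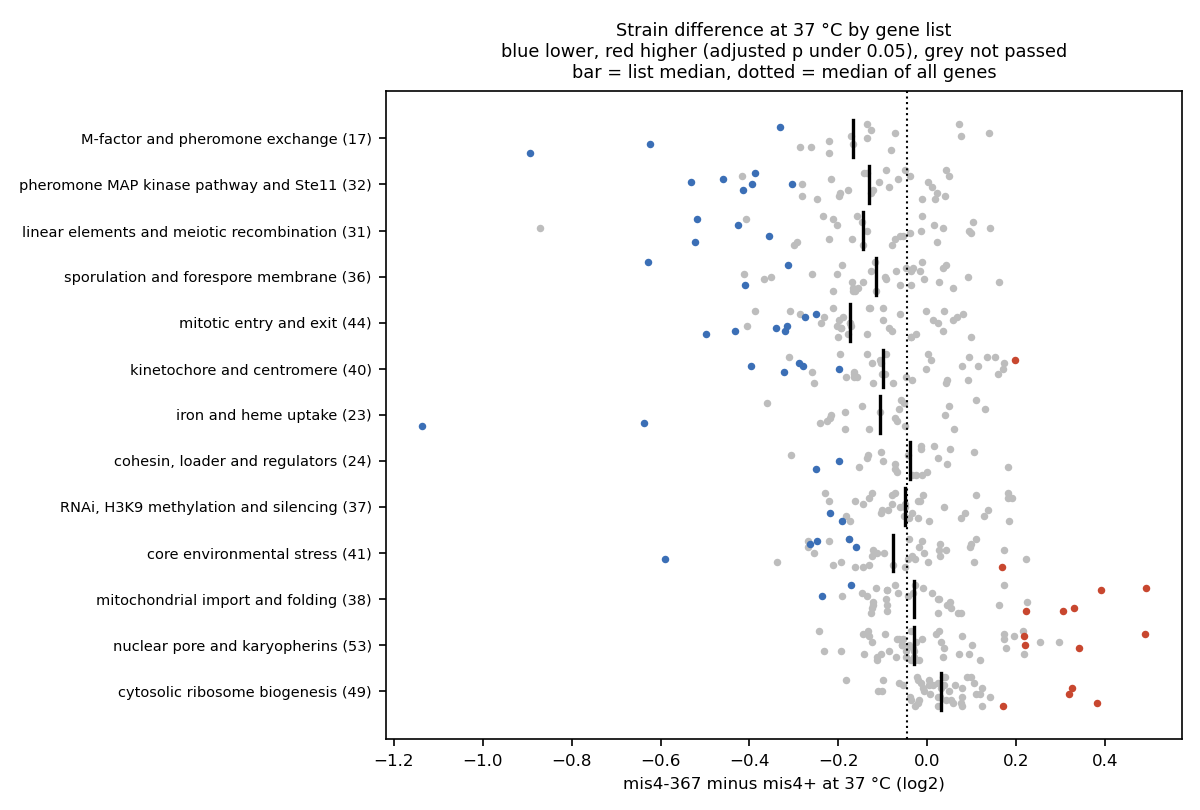
Difference of each measured member between the strains at 37 °C, by gene list, with the number measured in brackets. Points are genes, blue lower and red higher in mis4-367 and grey not passed, black bars are list medians and the dotted line is the median of all 2896 genes (-0.05). Some of the 31 lists are drawn. The iron gene str3 lies furthest left (-1.14), and among the lists drawn red points lie mostly in those of mitochondrial import, nuclear pore and ribosome biogenesis.

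Of 44 measured regulators of mitotic entry and exit 7 were lower (15.91%, against 5.46% of all genes) and none higher, with a median of -0.17. slp1, the activator of the anaphase-promoting complex (the ubiquitin ligase that ends mitosis), had 8.06, 8.04 and 8.14 in mis4+ and 7.51, 7.51 and 7.73 in mis4-367, without overlap (-0.50 ± 0.06, adjusted p = 0.00288). Its call held with each of the 6 arrays left out, as did that of apc2, a subunit of the same ligase outside the list (-0.33 ± 0.05, adjusted p = 0.00487). Lower as well were the kinase gene fin1 (-0.43, adjusted p = 0.0313), cdr1, an inhibitor of Wee1 (-0.34, adjusted p = 0.0315), the cyclin gene cdc13 (-0.32, adjusted p = 0.0269), the ligase subunit gene apc15 (-0.32, adjusted p = 0.029), the phosphatase gene cdc25 (-0.27, adjusted p = 0.0303) and the securin gene cut2 (-0.25, adjusted p = 0.0455). The list, without replicate 3 of mis4+, kept 4 of 7 calls and had a median of -0.10, with fin1 (adjusted p = 0.0777), cdc25 (0.059) and cut2 (0.104) no longer passing. After quantile normalization the list had 5 lower members and a median of -0.08. Neither apc15 (-0.10, adjusted p = 0.398) nor apc2 (-0.23, adjusted p = 0.0694) passed then. Of the list 56.8% lay among the dimmest 25.0% of all genes, where 9.81% of genes were lower. Of 5 measured markers of mitosis and septation 3 were lower, and their summed intensity was 2248 to 2588 in mis4+ and 1853 to 1990 in mis4-367. The largest part of that linear sum was cdc13. The share of cells in mitosis was not measured here, so its part in these differences was not tested.

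Of 40 measured kinetochore and centromere genes 5 were lower (12.5%, against 5.46% of all genes), with a list median of -0.10. A single member was higher (2.5%, near the 1.73% of all genes). The lower members were mis18 (-0.40), mis13 (-0.32), mis15 (-0.29), cnp1, the centromeric histone H3 (-0.28), and hos2, a histone deacetylase (-0.20), while mis12 of the kinetochore was higher (0.20, adjusted p = 0.0455). Their adjusted p lay between 0.0243 and 0.0455. After quantile normalization 2 were lower and 2 higher, and without replicate 3 of mis4+ mis15 alone passed (adjusted p = 0.0448). Of the list 77.5% lay among the dimmest 25.0% of all genes, where 9.81% of genes were lower. The deacetylase gene hos2 is counted in the cohesin list as well, and its call was lost without any 1 of the 6 arrays at 37 °C. Among 37 genes of RNA interference and silencing, arb1, an Argonaute-binding protein (-0.22, adjusted p = 0.042), and the deacetylase gene sir2 (-0.19, adjusted p = 0.0293) were lower and 35 did not pass. That is 5.41%, near the 5.46% of all genes. arb1 did not pass without replicate 3 of mis4+ (adjusted p = 0.0838), and after quantile normalization none of the list was lower and 3 were higher. Of 46 replication genes cdc1, of DNA polymerase delta (-0.27, adjusted p = 0.00517), and the kinase gene hsk1 (-0.27, adjusted p = 0.0407) were among 3 lower members, or 6.52%, also near the share of all genes. Only cdc1 was lower without replicate 3 of mis4+ or after quantile normalization, and the adjusted p of hsk1 was 0.0875 and 0.0911.

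In the fit of all 12 arrays no gene of the cohesin ring or its loader passed. mis4 had 8.41, 8.24 and 8.33 in mis4+ and 8.15, 8.21 and 8.40 in mis4-367, overlapping (-0.07, adjusted p = 0.541), and a thermosensitive allele need not alter its transcript. ssl3 was at 0.00, psm3 at -0.15 (adjusted p = 0.124), rad21 and psc3 at -0.01, and psm1 at -0.31 (adjusted p = 0.0718) with levels of 8.49, 8.30 and 8.82 against 8.26, 8.19 and 8.24. Without replicate 3 of mis4+ the difference of psm1 was -0.16 (adjusted p = 0.109). Without replicate 2 of mis4+ psm1 and psm3 did pass, at -0.42 (adjusted p = 0.0116) and -0.20 (0.0438), and with array weights they passed at -0.24 (0.025) and -0.24 (0.0202). Among 24 genes of cohesin, its loader and regulators 2 were lower (cut2 and hos2, 8.33% against 5.46% of all genes) and 22 did not pass. Neither passed without replicate 3 of mis4+, with adjusted p of 0.104 for cut2 and 0.0562 for hos2, the call of hos2 was lost without any 1 of the 6 arrays at 37 °C, and after quantile normalization 0 of the list were lower and 1 was higher. Of the condensin and Smc5-Smc6 genes 0 of 13 passed in limma, and 1 was higher after quantile normalization. Among the genes of the arrest, res1 was higher in mis4-367 (0.40 ± 0.09, adjusted p = 0.0318), with levels of 10.26, 10.47 and 10.15 in mis4+ and 10.47, 10.82 and 10.77 in mis4-367, where the lowest mis4-367 array equalled the highest mis4+ array to 2 decimals. Whether its probe set reads the plasmid's fragment was not tested, and without replicate 3 of mis4+ its adjusted p was 0.0805. cdc10 did not pass (0.04, adjusted p = 0.698), and of 29 measured MBF targets whi5 was lower (-0.23, adjusted p = 0.0464) and 28 did not pass. That is 3.45% of the targets, against 5.46% of all genes. Without replicate 3 of mis4+ whi5 did not pass either (0.0637), and after quantile normalization it was at -0.01.

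Iron uptake held the gene with the largest difference of all, str3, a transporter of heme supply. Its levels were 5.53, 6.60 and 6.08 in mis4+ and 4.99, 5.05 and 4.76 in mis4-367, so that the mis4+ cultures spread over more than 1 unit and still lay above all mis4-367 arrays (-1.14 ± 0.24, 2.20-fold, adjusted p = 0.0253). Next was frp1, a ferric reductase gene, with 7.41, 7.95 and 7.84 against levels of at most 7.21 (-0.64 ± 0.13, adjusted p = 0.0253). The remaining 21 of 23 measured members did not pass, so that 8.7% of the list was lower, against 5.46% of all genes. Both calls were lost without replicate 3 of mis4+ or replicate 2 or 3 of mis4-367 (adjusted p between 0.0541 and 0.0758).

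Several nutrient and stress genes were lower apart from these lists. mel1, an alpha-galactosidase gene, had 7.11, 7.09 and 7.14 in mis4+ and 6.47, 6.67 and 6.61 in mis4-367 (-0.53 ± 0.08, adjusted p = 0.00517). Its gap was wider at 25 °C (-1.15, adjusted p = 1.58e-05), and the difference between the temperatures did not pass (0.62, adjusted p = 0.125). git3, the glucose receptor of the cAMP pathway (-0.45 ± 0.07, adjusted p = 0.00517), kept its call with each of the 6 arrays left out, while git5, the beta subunit of its G protein (-0.34, adjusted p = 0.0428), did not pass without replicate 3 of mis4+ or any 1 array of mis4-367. Of 41 genes in the core stress list 5 were lower (12.2%, against 5.46% of all genes) and 1 was higher (2.44%, against 1.73%). The membrane transporter gene caf5 (-0.59, adjusted p = 0.0167) was the lowest of the 5. The others were the stress kinase gene sty1 (-0.26), ish1 (-0.25), cip1 (-0.18) and tps1, of trehalose synthesis (-0.16). Of the 5, caf5 and ish1 still passed without replicate 3 of mis4+, and sty1, cip1 and tps1 had adjusted p between 0.0534 and 0.059. Of 29 heat shock protein genes 1 was lower and 1 higher (3.45% each, against 5.46% and 1.73% of all genes). Their median was 0.01 with or without replicate 3 of mis4+. Also among the 15 lowest were but1 (-0.61, adjusted p = 0.00308), lsd90 (-0.50, adjusted p = 0.0232, and 0.0505 without replicate 3 of mis4+) and egt1, of ergothioneine synthesis (-0.46, adjusted p = 0.0112).

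Of the genes higher in mis4-367, aes1 stood furthest from mis4+. Its levels were 8.59, 8.59 and 8.41 in mis4+ and 9.07, 9.11 and 9.14 in mis4-367, a gap far wider than the spread within either group (0.58 ± 0.07, 1.49-fold, adjusted p = 0.00298). At 25 °C the strains did not differ in aes1 beyond their spread (0.03, adjusted p = 0.941), and its difference between temperatures was 0.55 (adjusted p = 0.125). mug184, named for its rise in meiosis, likewise was higher at 37 °C, with 5.79, 5.80 and 5.82 against 6.06, 6.19 and 6.13 (0.32 ± 0.05, adjusted p = 0.00517) and -0.08 at 25 °C (adjusted p = 0.125 for the difference). uba2, of the enzyme that activates the modifier SUMO, was higher (0.37 ± 0.06, adjusted p = 0.00718), as was pmt3, which encodes SUMO (0.32, adjusted p = 0.00939). aes1, mug184 and uba2 kept their call with each of the 6 arrays at 37 °C left out, and pmt3 did not pass without replicate 2 of mis4-367, with an adjusted p of 0.056. Of the 15 highest genes the other 13 also did not pass without that array (adjusted p between 0.0642 and 0.157).

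In the list of mitochondrial import and folding 5 of 38 measured members were higher (13.16%, against 1.73% of all genes). The 2 lower members were 5.26%, near the 5.46% of all genes, and the list median was -0.03, or 0.00 without replicate 3 of mis4+. All 4 small Tim genes, whose products escort proteins between the mitochondrial membranes, were higher: tim10 (8.89, 9.17 and 8.55 in mis4+ against 9.21, 9.50 and 9.38 in mis4-367, 0.49 ± 0.12, adjusted p = 0.0391), tim9 (0.39, adjusted p = 0.0269), tim13 (0.31, adjusted p = 0.0232) and tim8 (0.22, adjusted p = 0.0294). For tim10 the lowest mis4-367 array lay just above the highest mis4+ array, and mis4+ replicate 3 was the lowest of all. The small Tim genes were grouped by name after their values were seen. Of all 21 measured tim and tom genes these 4 were higher (19.05%) and none was lower. The median of the 21 was 0.02, or 0.04 without replicate 3 of mis4+. The median of the small Tim genes fell from 0.35 to 0.29 without that array, with tim9 (adjusted p = 0.0432) and tim13 (0.0463) still passing. All 4 calls were lost without replicate 2 of mis4-367, and also without its replicate 3. In those fits the adjusted p of tim9 and tim13 lay between 0.0569 and 0.112. mge1, the exchange factor of mitochondrial Hsp70, was higher too (0.33, adjusted p = 0.0172), whereas sam50, of the outer membrane (-0.24, adjusted p = 0.0777 without replicate 3 of mis4+), and qcr1 (-0.17) were lower. tim10 (0.0732) and tim8 (0.0505) did not pass without that array.

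Nuclear pore genes had 4 higher of 53 measured members (7.55%, against 1.73% of all genes) and none lower. The higher members were dss1 (0.49 ± 0.12, adjusted p = 0.0392), which is also a proteasome subunit, nup107 (0.34, adjusted p = 0.0232), nup97 (0.22) and nup211 (0.22). The levels of dss1 were 7.46, 7.57 and 7.16 in mis4+ and 7.64, 8.10 and 7.92 in mis4-367, with a narrow gap, and its adjusted p was 0.0961 without replicate 3 of mis4+. nup107, whose mis4+ replicate 3 was its highest mis4+ array, had a larger difference without that array (0.40), whereas nup97 (adjusted p = 0.0911) and nup211 (0.0562) did not pass without it. Of the cytosolic ribosome biogenesis factors 4 of 49 were higher (8.16%, against 1.73% of all genes) and none lower, with a median of 0.03. The higher ones were ppp1 (0.38), spb1 (0.33), dim1 (0.32) and noc3 (0.17), with adjusted p between 0.0365 and 0.0391. ppp1 and noc3 still passed without replicate 3 of mis4+, where spb1 (0.0875) and dim1 (0.0925) did not. The list median was 0.06 without that array. None of 118 ribosomal protein genes passed, with a median of 0.03. The transcription coactivator gene sub1 was at 8.07, 8.14 and 7.74 against 8.17, 8.68 and 8.56 (0.49, adjusted p = 0.0428), and its8 (0.34), ssr2, of chromatin remodelling complexes (0.33), vam6, of vacuolar fusion (0.33), ker1, an RNA polymerase I subunit (0.33), and the myosin light chain gene cdc4 (0.33) closed the 15 highest genes, with adjusted p between 0.0112 and 0.0428. Of these sub1 (0.114) and cdc4 (0.0804) did not pass without replicate 3 of mis4+.

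The strains differed before the shift in the same direction for nearly all these genes. Of the 158 lower genes 154 had a difference below 0 at 25 °C as well (97.5%), and of the 50 higher genes 45 had one above 0 (90.0%), while 65.0% of all genes lay below 0 at 25 °C. At 25 °C 18 genes were lower (0.622%) and none higher, and 12 of these 18 were lower at 37 °C too. The medians at 25 °C of the genes lower and higher at 37 °C were -0.14 and 0.10, beside -0.29 and 0.27 at 37 °C. The difference between the 2 temperatures was tested for every gene and passed for none in limma, with 141 genes at an unadjusted p under 0.05 and 2 genes passing when arrays were weighted by their quality. The smallest adjusted p was 0.125. No named gene was thus shown to differ between the strains more at 37 °C than at 25 °C. The larger count at 37 °C depended on the spread that all 4 groups share: a fit of the 6 arrays at 37 °C alone gave 10 genes, among them mfm1, spn6, mfm3, but1, mel1, slp1, byr2, meu14 and aes1, and a fit of the 6 arrays at 25 °C alone gave 154. With no test, the 3 mis4-367 arrays all lay below the 3 mis4+ arrays at 37 °C for 501 genes (17.3%) and above them for 210 (7.25%), and at 25 °C for 692 (23.9%) and 256 (8.84%). Of the 158 lower genes 157 were apart in this way at 37 °C and 105 at 25 °C, and of the 50 higher genes 50 and 26. These genes were chosen by a test on the same arrays at 37 °C, so their separation at 37 °C follows from the choice.

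**Figure D3:**
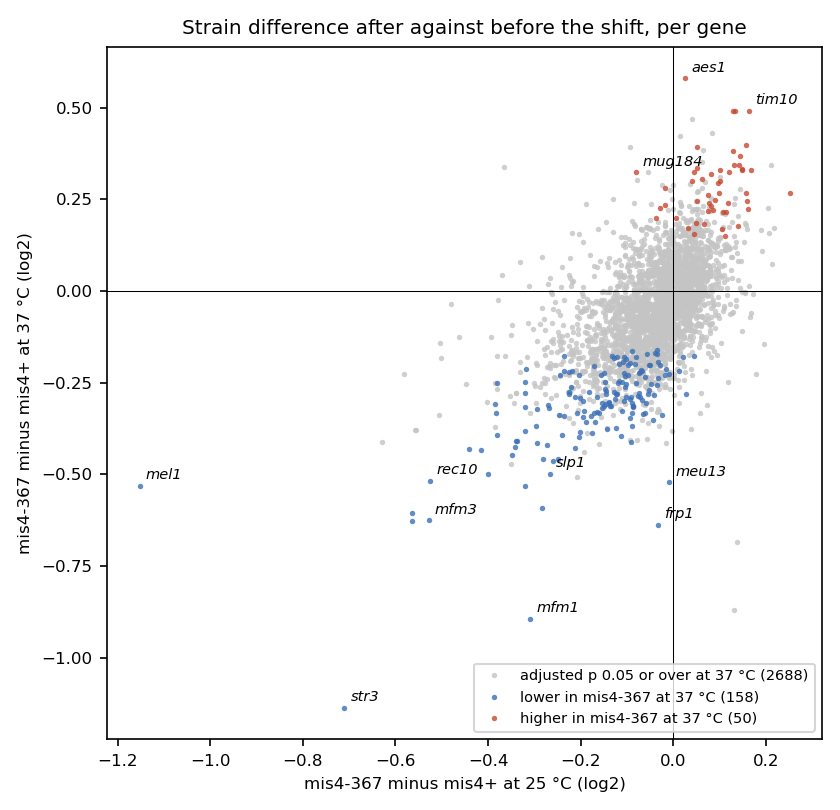
Difference between the strains at 37 °C (vertical) against that at 25 °C (horizontal), both as log2 mis4-367 minus mis4+, for 2896 genes. The axes share no array, and 154 of the 158 lower genes lie left of 0 while mel1 lies furthest left and str3 lowest.

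**Figure D4:**
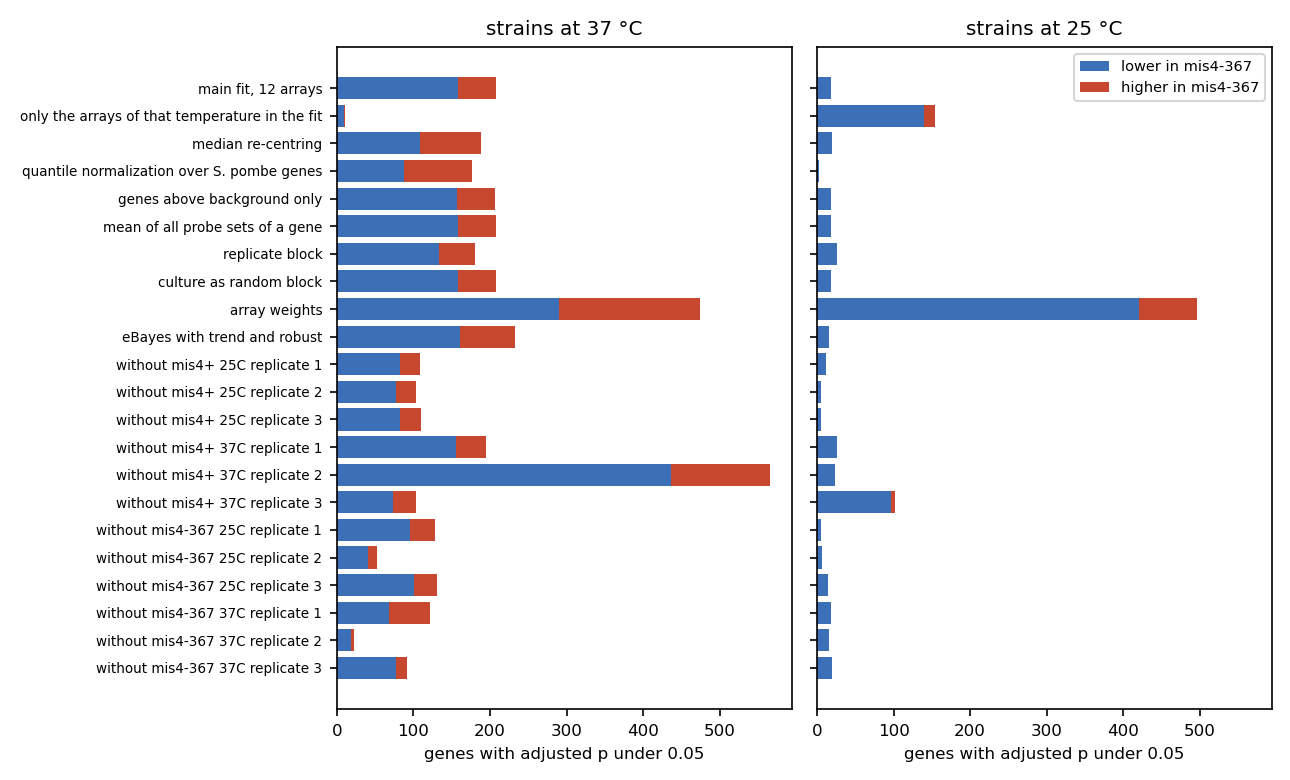
Number of genes that passed between the strains at 37 °C (left) and at 25 °C (right) under each setting of the fit, split by direction, on a shared axis starting at 0. At 37 °C the number runs from 10 with the arrays of that temperature alone to 566 without replicate 2 of mis4+.

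The difference was larger among dim genes. With the genes in 4 bins of 724 by brightness, the median difference was -0.12 in the dimmest, then -0.07 and -0.03, and 0.00 in the brightest (-0.08, -0.03, 0.00 and 0.02 without replicate 3 of mis4+), and 71, 42, 31 and 14 genes of the bins were lower, against 4, 16, 19 and 11 higher. The same order held at 25 °C, from -0.10 to 0.01. After quantile normalization the 4 medians lay between -0.01 and 0.00, and the lower genes numbered 23, 23, 25 and 17 while the higher numbered 28, 27, 23 and 10. The level of the lower genes over the 12 arrays had a median of 7.84, that of the higher genes 8.96 and that of all genes 8.66. The 2601 probe sets named for another yeast had a median of 0.00, and 0 of them passed in limma at 37 °C. At 25 °C their median was 0.02, and 4 were higher.

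**Figure D5:**
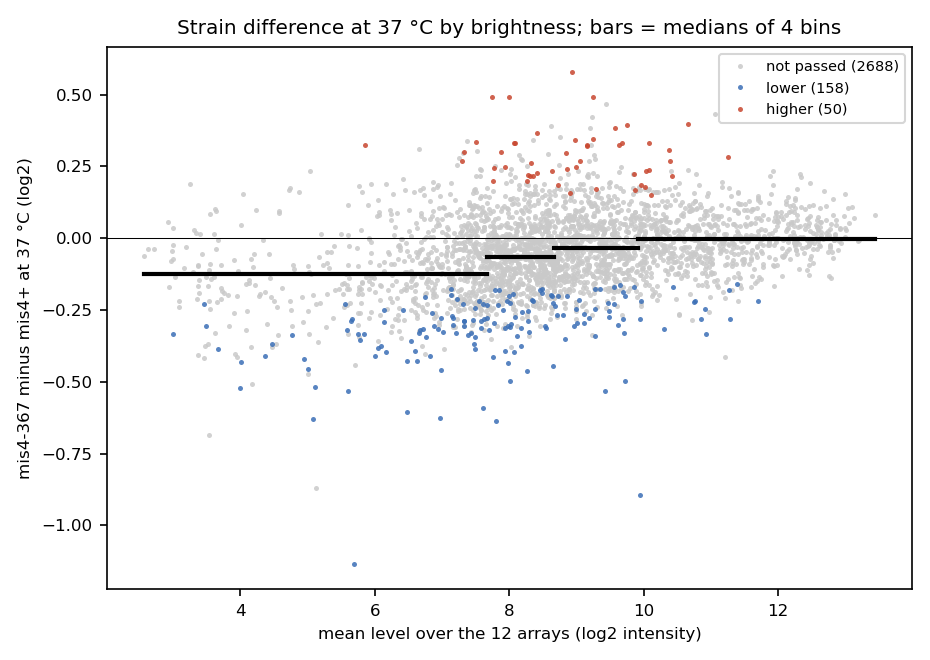
Difference between the strains at 37 °C against the mean level over the 12 arrays, for 2896 genes, with black bars at the median of each of 4 brightness bins. The bars run from -0.12 in the dimmest bin to 0.00 in the brightest.

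Genes that passed were spread over the chromosomes, with 72 lower and 21 higher of 1298 genes measured on chromosome I, 60 and 19 of 1100 on II, and 26 and 10 of 492 on III. Of the 40 outermost genes per end of chromosomes I and II, 32 were measured over the 4 ends, with 2 lower (str3 and mel1) and 1 higher (aes1). Of all genes 5.46% were lower and 1.73% higher. The median of the 32 was -0.09, and 0.00 without replicate 3 of mis4+. Of the 20 outermost genes per end 8 were measured, with 0 lower and 0 higher. Their median was -0.09, or -0.03 without replicate 3 of mis4+. Of the genes next to a lower gene and measured, 4 of 196 (2.041%) were lower too, against 5.46% of all genes, in the pairs rhp42 with gyp3 and mis18 with rad16. Of those next to a higher gene, 6 of 62 (9.677%) were higher, against 1.73% of all genes, in the pairs cdc4 with paa1, ppp1 with dnt1 and vma7 with mge1. Each pair is counted from both of its genes, so the 4 and the 6 rest on only 2 and 3 pairs.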

How the data were processed

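The authors deposited 1 intensity per array and probe set, made by RMA per the submitters' processing notes (its version is not given in those notes). RMA corrects background, brings arrays to a shared distribution and summarises probes, which can flatten broad shifts and understate dim genes. The deposited intensity is on a linear scale, reaching 12169, and was put on the log2 scale. Of 10928 probe sets 2914 named 1 S. pombe gene through the platform annotation and a RefSeq table (ASM294v3), and the brightest probe set per gene left 2896 genes. Background (log2 3.42) was the 95th percentile of 2601 probe sets named for another yeast. Differences come from limma 3.58.1 in R 4.3.3 (lmFit, contrasts.fit, eBayes, 4 group means, 12 arrays, no block), with Benjamini-Hochberg adjustment over 2896 genes and a threshold of 0.05, checked on simulated data. Figures used matplotlib 3.10.9. Genes named are the 15 lowest and 15 highest that passed, members of 31 gene lists that passed with up to 4 others each, the genes of cohesin and arrest, and genes keeping their call with each array left out. The comparison, gene lists and tests were chosen with earlier results of these data known. Alternatives were re-centring, quantile normalization, a background filter, probe set means, blocks, array weights, trended eBayes and leaving out arrays. Columns not mapped to a sample numbered 0.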

Additional observations from a re-analysis of the deposited data

Results flagged for a closer look

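Of 5177 probe sets without a gene name, 2163 (41.8%) lay above background and were tested in a fit of their own, and they belong to no comparison above. At 37 °C 77 of them were lower and 30 higher in mis4-367 (limma, adjusted p under 0.05), and at 25 °C 26 were lower and 8 higher. The difference between the temperatures passed for 1 downward and 4 upward, while it passed for 0 of the named genes. The lowest were 1778251_at (-1.73, adjusted p = 0.0256) and 1778817_at (-1.58, adjusted p = 0.000413), and the highest were 1769794_at (1.36, adjusted p = 7.35e-05) and 1772987_at (0.995, adjusted p = 0.000132). At 25 °C these 4 differed by -1.54, -0.95, 0.999 and 1.21. Which transcripts they read is not known here.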

How the results depend on the processing

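No gene that passed changed direction under any setting tried, and re-centring, quantile normalization and the block kept 158, 125 and 160 of the 208 calls. At 37 °C the count was 10 in a fit of the arrays at 37 °C alone, 2 when replicate 3 of mis4+ was also left out (a setting chosen after seeing the data) and 474 with array weights, and leaving out 1 array gave 22 (replicate 2 of mis4-367 at 37 °C) to 566 (replicate 2 of mis4+ at 37 °C). At 25 °C the count of 18 was 154 with only those arrays, 3 with quantile normalization, 496 with array weights and 5 to 102 with 1 array left out. For the difference between temperatures the count of 0 was 2 with array weights and 0 to 1 with 1 array left out, the 1 without replicate 2 of mis4-367 at 25 °C. The cause was not tested. The cohesin genes psm1 and psm3, which did not pass, passed with array weights (-0.24 each) and without replicate 2 of mis4+ at 37 °C (-0.42 and -0.20). The replicate block gave 181 genes at 37 °C and 26 at 25 °C; replicate numbers did not pair the samples (correlations of same-numbered strains at 37 °C were -0.158, 0.183 and -0.065). Of genes that did not pass, rad21 (-0.01) turned to 0.0257 with re-centring, 0.0106 with quantile normalization, and ran from -0.0332 to 0.0083 with 1 array left out; psc3 (-0.01) to 0.0283, 0.0746 and, with 1 array left out, -0.052 to 0.0462; ssl3 (0.00) ran from -0.0507 to 0.0996 with 1 array left out; and cdc10 (0.04) to -0.0482 with array weights and -0.0455 without replicate 3 of mis4+ (also in the fit at 37 °C alone), with -0.0455 to 0.1054 over single arrays left out. Convergent, divergent and tandem neighbours were not compared, for want of strand in the gene table used, and background correction and slide blocks were not run, since scanner files were not used here.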

Other observations

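Groups named by gene symbol after their values were seen, and so given without a test, held further genes. Of 35 vps and vac genes, of vacuolar sorting, 6 were lower and none higher (median -0.09, or -0.02 with 2 lower without replicate 3 of mis4+), with vps38 at -0.39, vac7 at -0.31 and vac8 at -0.29. Of 22 ppk kinase genes 4 were lower (ppk31 -0.34, ppk22 -0.31, ppk33 -0.25 and ppk6 -0.20), and without replicate 3 of mis4+ ppk31 (adjusted p = 0.0609) and ppk6 (0.0719) did not pass, while after quantile normalization 1 was lower. Of 14 F-box genes of the pof series 3 were lower, pof5 (-0.35), pof14 (-0.29) and pof13 (-0.21), and without replicate 3 of mis4+ pof13 had an adjusted p of 0.0838, while pof5 and pof14 kept their call with each of the 6 arrays at 37 °C left out. Of 15 gpi anchor genes 3 were lower and 1, its8, higher, and without replicate 3 of mis4+ 1 was lower and 1 higher. Of 122 genes named for meiosis (mug, meu, mcp and mde) 14 were lower and 2 higher (median -0.16). Of the 122 genes 72.1% lay among the dimmest 25.0% of all genes, where 9.81% of genes were lower. Without replicate 3 of mis4+ 7 were lower and 2 higher (median -0.09), and with quantile normalization 2 were lower and 3 higher (median -0.03). For comparison, 5.46% of all genes were lower and 1.73% higher.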
